A study of Saccharomyces cerevisiae with 15 samples.

Results

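The genes described here are the 8 protein-coding genes of the mitochondrial DNA of budding yeast, Saccharomyces cerevisiae, that encode subunits of the respiratory chain, of the ATP synthase and of the mitochondrial ribosome. They are COB, COX1, COX2, COX3, ATP6, ATP8, OLI1 and VAR1. Every probe set whose only gene symbol was one of these names was taken as a member, which gave 14 of the 9275 probe sets tested, with at least 1 for each of the 8 genes, of 5656 genes that the arrays measured in all. A further 6 probe sets matched COB or COX1 together with reading frames in their introns, and 14 matched only such reading frames or other open reading frames of the mitochondrial genome. These 2 sets are described beside the members and are not counted among them.

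The mitochondrial genome of yeast encodes a handful of proteins, while all other mitochondrial proteins are encoded in the nucleus and imported. COB is cytochrome b, the mitochondrial subunit of the cytochrome bc1 complex. COX1, COX2 and COX3 form the catalytic core of cytochrome c oxidase, ATP6, ATP8 and OLI1 belong to the membrane sector of the ATP synthase, and VAR1 is a protein of the small subunit of the mitochondrial ribosome. A dedicated RNA polymerase transcribes these genes in long units that are cut at transfer RNAs and other sites. COX1, ATP8 and ATP6 share such a unit, and so do OLI1 and VAR1. COB and COX1 carry introns, some with reading frames for maturases or endonucleases, and most of the mRNAs need gene-specific nuclear proteins for their processing, stability or translation. Yeast mitochondrial mRNAs carry no poly(A) tail, and the labels do not give the priming step of the RNA labelling.

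In the RefSeq annotation of assembly R64, all 8 genes lie on the mitochondrial chromosome. COX1 spans bases 13818 to 26701 with its introns, ATP8 spans 27666 to 27812 and ATP6 spans 28487 to 29266. COB, with its introns, spans 36540 to 43647. OLI1 lies at 46723 to 46953, VAR1 at 48901 to 50097, COX2 at 73758 to 74513 and COX3 at 79213 to 80022. The intron reading frames AI1 to AI5_ALPHA are annotated from the same start as COX1, and BI2, BI3 and BI4 from the same start as COB, because they begin in the exons of the host gene.

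RNA was measured on 15 Affymetrix arrays in 5 groups of 3. All strains were MATa and of the BY4741 background and carried a galactose-inducible fragment of human huntingtin. The fragment held 25 glutamines in the group Htt25Q, which the labels give as wild-type, and 103 glutamines in the group Htt103Q. The 3 remaining groups, bna4Δ, mbf1Δ and ume1Δ, expressed Htt103Q in strains that lack BNA4 (kynurenine 3-monooxygenase of NAD synthesis), MBF1 (a transcriptional coactivator) or UME1 (a subunit of histone deacetylase complexes). The design text calls these deletions suppressors. Cells of every group grew at 30 °C in synthetic medium without uracil and with 2% galactose, a carbon source on which yeast respires as well as ferments. The cultures of 12 mL ran from an optical density of 0.2 to about 1. Whether the 3 arrays of a group stem from separate cultures is not stated in the labels. A p therefore reflects how far these arrays scatter, which may be technical scatter only.

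The values are log2 signals, quantile normalized over the 15 arrays. As deposited they fell into 2 processing sets with different lowest values. The first set held Htt25Q, Htt103Q and ume1Δ (9 arrays, lowest value 2.06), and the second held bna4Δ and mbf1Δ (6 arrays, lowest value 2.02). Comparisons were made only within a set, since strain and processing set cannot be told apart across them. The deposited array medians lay at 6.35 to 6.47 in the first set and 6.78 to 6.84 in the second. A group is called at the floor where its 3 deposited values lay within 0.1 of the lowest value of its set. Each deleted gene read low in its own strain, with means of 2.12 for BNA4, 2.09 for MBF1 and 2.33 for UME1. MATa markers were present, with STE2, STE6, BAR1, MFA1 and MFA2 at 7.21 to 13.1 and ASG7 lower, at 3.15 to 6.06. Of the MATalpha markers, MF(ALPHA)2 was at the floor in all 5 groups, while MF(ALPHA)1 ranged from 2.19 to 6.94, STE3 from 2.19 to 4.32 and SAG1 from 4.87 to 6.08. Some control measures moved between arrays. In array 1 of Htt25Q the actin probe set for the 3′ end exceeded that for the 5′ end by 2.25, while this difference was −0.372 to 0.322 elsewhere (14 arrays). Array 1 of ume1Δ had a mean signal of 10.5 over the 5 probe sets for cytosolic 18S ribosomal RNA, while its set otherwise ranged from 6.11 to 8.17. The second set had 18S signals of 9.6 to 11.2.

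**Figure D1:**
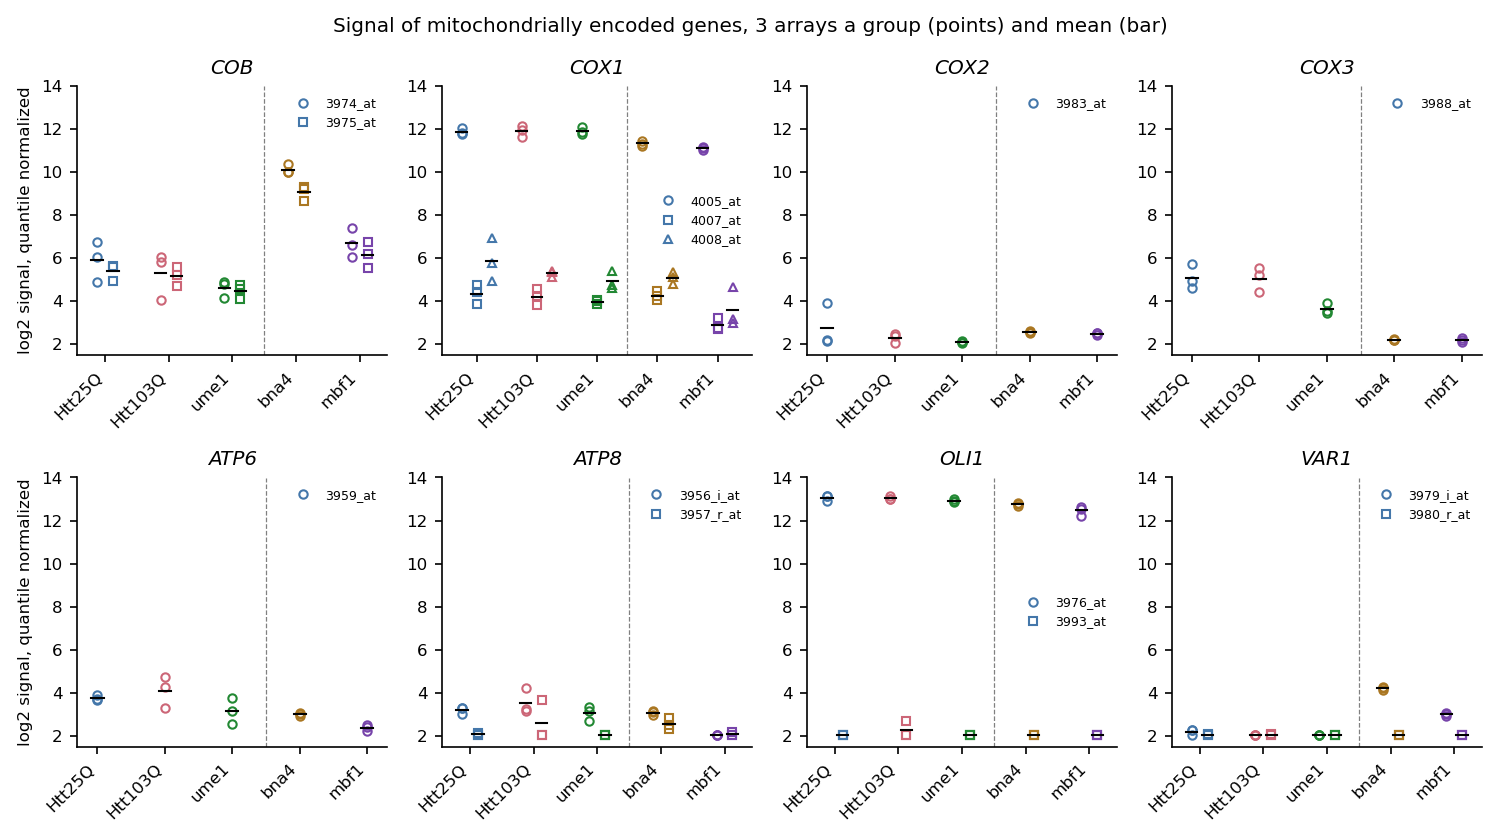
Log2 signal (y axis, quantile normalized) of each member probe set in the 5 groups (x axis), with 1 panel per gene. Open symbols are the 3 arrays, symbol shapes are probe sets, the black bar is the mean, and the dashed line parts the processing sets. COB stands highest in bna4Δ, COX3 is lowest in the second set, and OLI1 3976_at stays between 12.2 and 13.1 throughout.

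The comparison of mbf1Δ with bna4Δ, both expressing Htt103Q, was the one in which mitochondrial transcripts differed most often. Of the 14 member probe sets, 5 were called lower in mbf1Δ and 0 higher at an adjusted p under 0.05. These were both probe sets of COB and 1 each of COX1, ATP8 and VAR1. Among all 9275 probe sets 10.5% were called in this comparison, 4.79% lower and 5.75% higher, and the median change over all of them was 0.00 on the log2 scale. The median change of the members was −0.54, with a range of −3.44 to 0.00. In 10 of the 14, all 3 arrays of mbf1Δ lay below all 3 of bna4Δ, which held for 19.9% of all probe sets, and in 2 both groups were at the floor.

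COB, cytochrome b, changed most. Its probe set 3974_at read 10.02, 10.36 and 9.998 in arrays 1, 2 and 3 of bna4Δ and 6.60, 6.06 and 7.40 in those of mbf1Δ. Every mbf1Δ array thus lay far below every bna4Δ array, with mbf1Δ array 3 the highest of its group. The change was −3.44 (SE 0.581, 95% interval −4.72 to −2.16), a 10.8-fold lower signal with an adjusted p of 0.00303 in limma. The second probe set, 3975_at, read 8.64, 9.21 and 9.33 in bna4Δ and 6.18, 5.57 and 6.76 in mbf1Δ. It was 7.41-fold lower, with a log2 change of −2.89 (SE 0.341, 95% interval −3.64 to −2.14, limma adjusted p = 0.000343). The groups did not overlap on either probe set, and mbf1Δ array 3 was again the highest of its group. Over the alternative settings the changes ranged from −3.80 to −3.12 for 3974_at and from −3.24 to −2.59 for 3975_at, and both stayed past the threshold in each of them. In such bulk RNA, fewer cells with the transcript and less of it in each cell cannot be told apart.

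The control signals for cytosolic ribosomal RNA moved in the same direction. The 18S mean was 11.2, 11.1 and 11.0 in the arrays of bna4Δ and 9.88, 9.6 and 10.7 in those of mbf1Δ. The 25S signal was 12.1, 12.0 and 12.1 in bna4Δ and 10.1, 10.2 and 11.1 in mbf1Δ. Within mbf1Δ, array 3 was the highest both in 18S, at 10.7, and in COB 3974_at, at 7.40. In the first processing set, which holds other strains, ume1Δ array 1 was the highest in 18S, at 10.5. It read 4.15 for COB 3974_at, where that set ranged from 4.06 to 6.76. The part of the ribosomal RNA differences in the COB result was not tested.

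**Figure D2:**
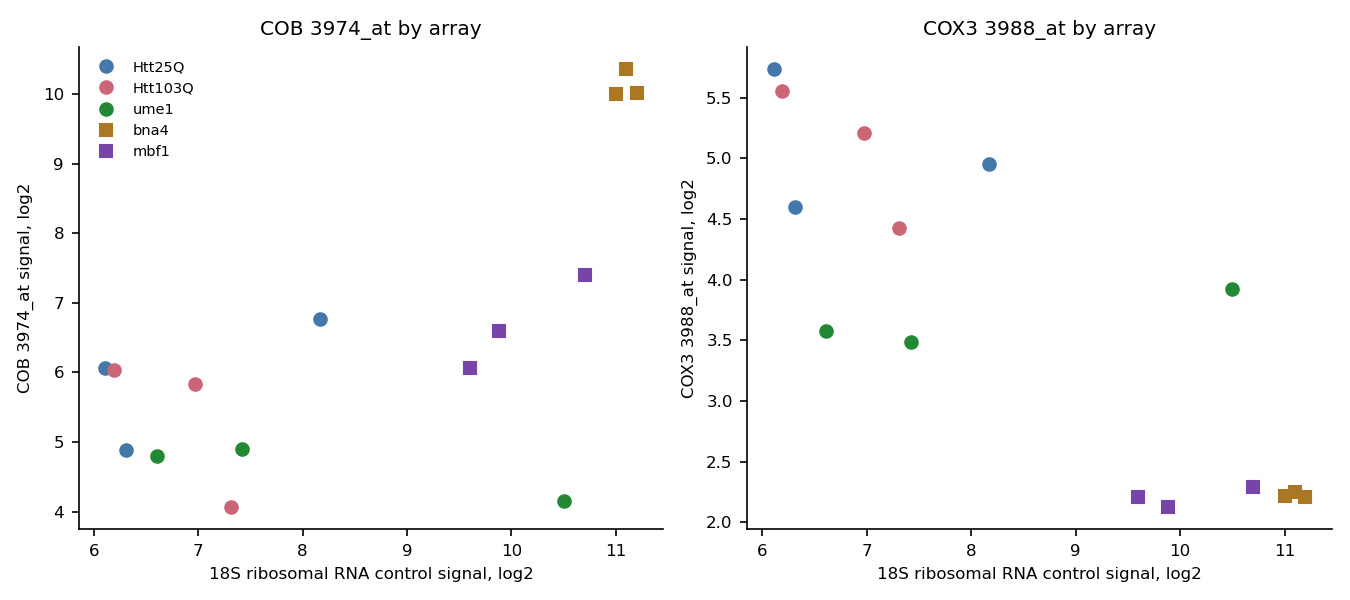
COB 3974_at (left) and COX3 3988_at (right), log2 signal on the y axis, against the mean 18S ribosomal RNA control signal of the same array (x axis, log2). Circles are arrays of Htt25Q, Htt103Q and ume1Δ, squares those of bna4Δ and mbf1Δ. In the second set the bna4Δ arrays lie highest on both axes of the left panel, while ume1Δ array 1, at an 18S signal of 10.5, reads 4.15 for COB.

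Of the core subunits of cytochrome c oxidase, COX1 was called lower on 1 of its 3 own probe sets, while COX2 and COX3 read close to the lowest value of the set in both strains. The 3 probe sets of COX1 differed among themselves. Probe set 4007_at read 4.27, 4.47 and 4.07 in bna4Δ and 2.74, 2.72 and 3.22 in mbf1Δ, with no overlap, a change of −1.38 (SE 0.239, 95% interval −1.90 to −0.85) and a limma adjusted p of 0.00352. Probe set 4008_at read 5.35, 4.81 and 5.14 in bna4Δ and 3.20, 2.99 and 4.68 in mbf1Δ. Its change of −1.48 (95% interval −2.61 to −0.35) was as large but more variable and was not called (limma adjusted p = 0.103). It was called in 2 of 15 alternatives, with array weights (−1.80, limma adjusted p = 0.000399) and without mbf1Δ array 3 (−2.01, adjusted p = 0.0222). Over the 15 alternatives the change ran from −2.01 to −1.16, with adjusted p up to 0.297. The third, 4005_at, read 11.21, 11.45 and 11.32 against 11.05, 11.15 and 11.13. The groups lay close together without overlap. It changed by −0.21 (95% interval −0.50 to 0.08, limma adjusted p = 0.427), so a fall of the size seen at 4007_at lay outside its interval.

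COX2, which carries the copper centre that accepts electrons from cytochrome c, read 2.52, 2.64 and 2.58 in bna4Δ and 2.51, 2.53 and 2.43 in mbf1Δ. Its change was −0.09 and was not called. COX3, the core subunit without redox centres, read 2.21, 2.25 and 2.21 in bna4Δ and 2.12, 2.21 and 2.29 in mbf1Δ. The groups overlapped, and its change of −0.02 had a 95% interval of −0.68 to 0.65. Signals this close to the lowest value of the set leave little room to see a fall.

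The 3 subunits of the ATP synthase gave smaller differences. ATP6, subunit a of the proton channel, read 3.03, 3.06 and 2.94 in bna4Δ and 2.40, 2.51 and 2.25 in mbf1Δ. The groups did not overlap, but the change of −0.62 (95% interval −1.38 to 0.14) was not called with a limma adjusted p of 0.357. It was called when only these 2 groups entered the fit, with an adjusted p of 0.0133. The SD of this probe set was 0.741 in Htt103Q and 0.613 in ume1Δ, which share the estimate of the spread in the full fit, against 0.0592 in bna4Δ and 0.132 in mbf1Δ. ATP8, a small subunit beside ATP6, read 3.15, 2.98 and 3.11 on 3956_i_at in bna4Δ and was at the floor in mbf1Δ. Its signal was at least 2.05-fold lower there (limma adjusted p = 0.0209), a call that each of the 6 fits with 1 array removed lost, at adjusted p of 0.0513 to 0.0719. The second ATP8 probe set, 3957_r_at, read 2.31, 2.50 and 2.83 against 2.04, 2.04 and 2.18 and was not called. OLI1, the subunit c of the rotor ring, read 12.75, 12.69 and 12.81 on 3976_at in bna4Δ and 12.21, 12.56 and 12.65 in mbf1Δ. The change was −0.28 (95% interval −0.50 to −0.05), not called with a limma adjusted p of 0.126. Its other probe set, 3993_at, was at the floor in both groups.

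VAR1, the ribosomal protein, gave the most precise difference. On 3979_i_at it read 4.14, 4.24 and 4.28 in bna4Δ and 3.00, 3.08 and 2.94 in mbf1Δ. The groups were well apart relative to their spread, with a change of −1.21 (SE 0.061, 95% interval −1.35 to −1.08), a 2.32-fold lower signal and a limma adjusted p of 5.88e-07. Its second probe set, 3980_r_at, was at the floor in all 5 groups.

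**Figure D3:**
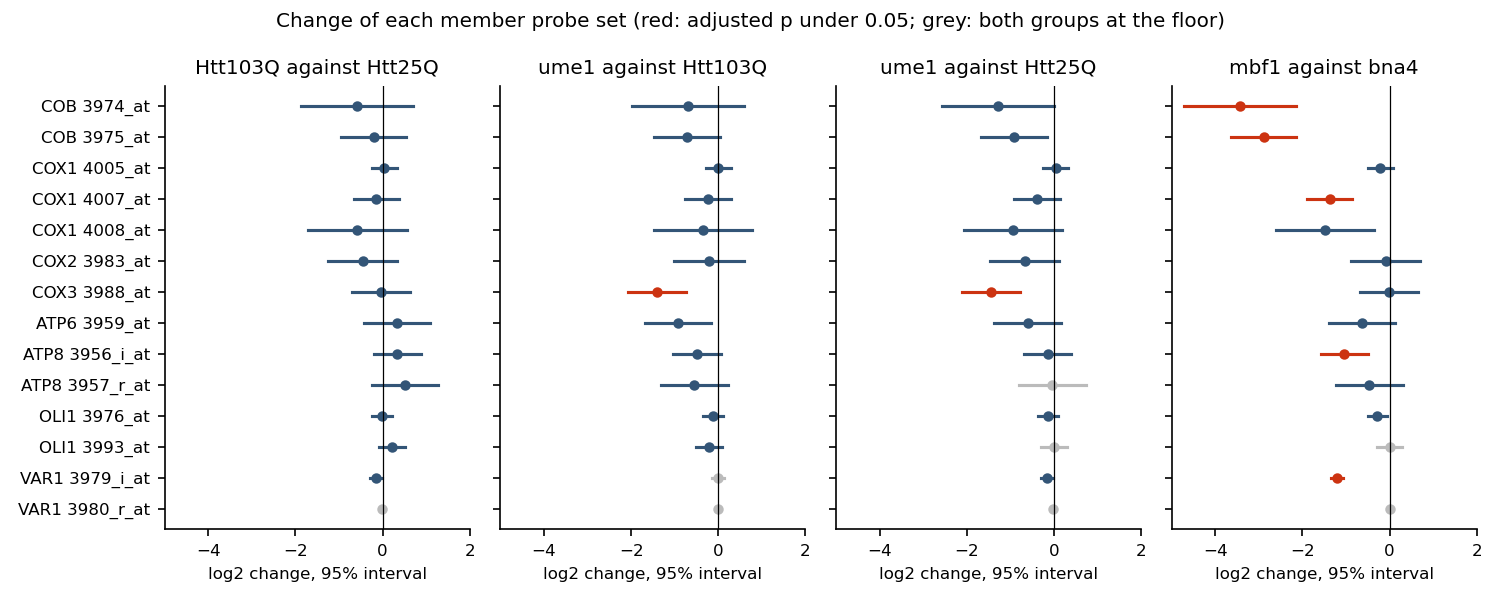
Log2 change of each of the 14 member probe sets (y axis) in the 4 comparisons (panels), with 95% intervals from the limma fit on the x axis. Red marks an adjusted p under 0.05 and grey marks probe sets at the floor in both groups. All 5 red points of the right panel lie below 0, COX3 is red in both ume1Δ panels, and no point is red in the left panel.

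Probe sets that COB or COX1 share with their intron reading frames were read separately, since their signal can come from spliced or unspliced RNA. Of the 6, 4 were called lower in mbf1Δ than in bna4Δ and 0 higher. All 3 that match COB fell. Probe set 3972_s_at, which matches COB and BI4, read 8.31, 8.61 and 8.60 in bna4Δ and 5.30, 4.85 and 6.27 in mbf1Δ, a change of −3.03 (SE 0.485, limma adjusted p = 0.00214). The other two, 3968_s_at and 3970_s_at, changed by −2.75 and −2.46 with adjusted p of 0.0438 and 0.0222. Of the 3 that match COX1, 3996_s_at fell from 8.34, 8.26 and 8.19 to 6.66, 6.79 and 7.69, a change of −1.22 with an adjusted p of 0.0231. Probe set 4001_at did not follow, with means of 10.42 and 10.29 and a change of −0.13 (95% interval −1.38 to 1.12). Probe set 4003_s_at changed by −0.55 with an adjusted p of 0.496. The calls at 3968_s_at, 3970_s_at and 3996_s_at were lost in 7, 5 and 8 of 15 alternative settings, and the call at 3972_s_at in none of them.

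**Figure D4:**
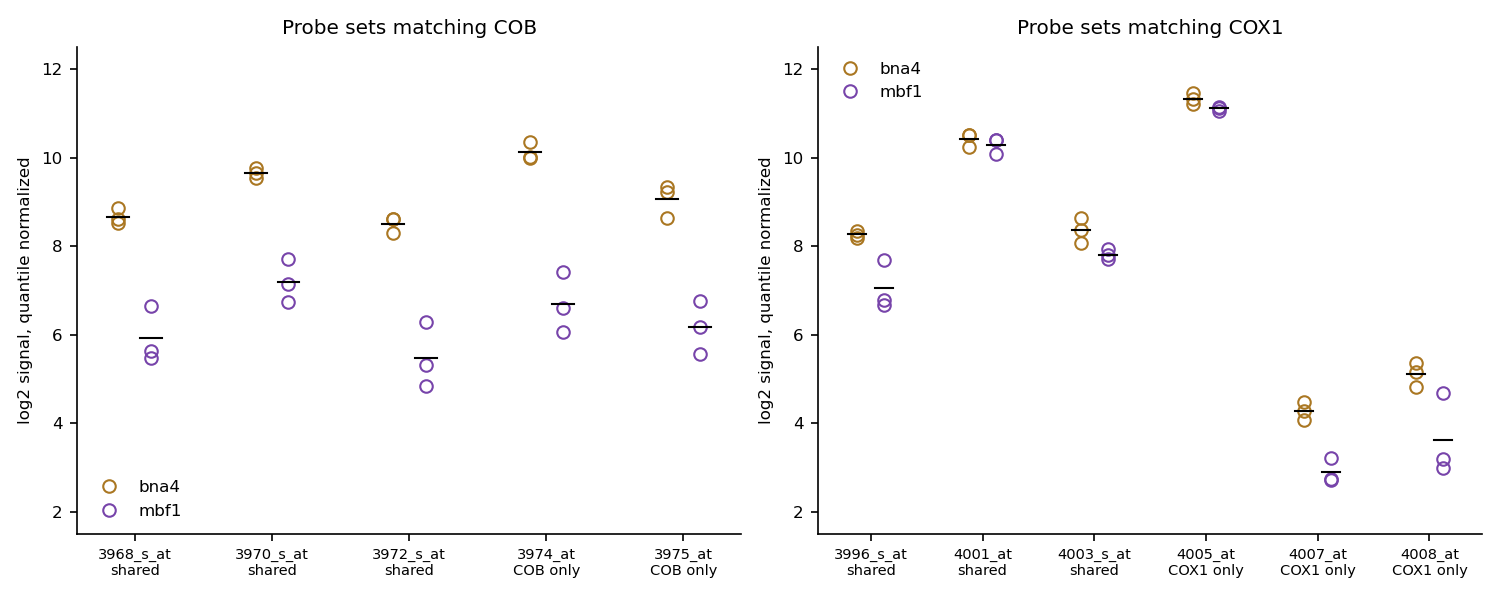
Log2 signal (y axis) of every probe set that matches COB (left) or COX1 (right), on the x axis, in bna4Δ and mbf1Δ. Points are arrays and bars are means. All 5 probe sets that match COB stand apart between the strains, while those of COX1 range from wide gaps at 4007_at and 3996_s_at to overlap at 4001_at.

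The difference between probe sets of different genes was itself examined over arrays, for pairs that were picked after their values were seen. Of the 3 COX1 probe sets the one used, 4005_at, had fallen least, by 0.21 against 1.38 at 4007_at and 1.48 at 4008_at. Ratios to the latter were not computed. The log2 ratio of COB 3974_at to COX1 4005_at was 3.23 lower in mbf1Δ than in bna4Δ, and its ratio to OLI1 3976_at was 3.16 lower. The ratios did not overlap between the 3 and 3 arrays. An exact two-sided permutation test gave p = 0.1, also after adjustment over the 8 ratios computed, and 0.1 is the smallest value that 3 arrays against 3 allow. Since the pairs were picked from these values, the lack of overlap and this p add nothing to the differences given above.

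Among the 14 probe sets for intron reading frames and other mitochondrial frames, 1 was called lower in this comparison, as were 4.79% of all probe sets. BI4, the maturase frame of a COB intron, read 3.12, 3.45 and 3.38 on 3973_at in bna4Δ and 2.29, 2.60 and 2.94 in mbf1Δ, a change of −0.71 with a limma adjusted p of 0.0222, lost in 7 of 14 alternatives. Its other probe set, 3989_at, did not follow. It was at the floor in bna4Δ, with a mean of 2.04, and had a mean of 2.07 in mbf1Δ. AI1, the frame in the first intron of COX1, had a larger but uncalled difference. It read 4.40, 4.18 and 5.25 in bna4Δ and 2.32, 2.75 and 3.27 in mbf1Δ, a change of −1.83 with a limma adjusted p of 0.0587. BI2 and BI3 were at the floor in every group on the probe sets that match them alone.

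The deletion of UME1 was compared with the Htt103Q strain within the first processing set. Of the 14 member probe sets 1 was lower, that of COX3, and 0 were higher. In this comparison 2.65% of all probe sets were called, 1.62% higher and 1.04% lower. The median change of the members was −0.30, against 0.00 over all probe sets. COX3 and OLI1 3976_at were the 2 members with no overlap in the lower direction, which 9.97% of all probe sets showed.

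COX3 read 4.42, 5.20 and 5.56 in Htt103Q and 3.92, 3.57 and 3.48 in ume1Δ. Every ume1Δ array lay below every Htt103Q array, but the gap between the nearest of them was smaller than the SD of Htt103Q (0.581). The change was −1.40 (SE 0.302, 95% interval −2.07 to −0.74), a 2.64-fold lower signal with a limma adjusted p of 0.0361. In the full fit bna4Δ and mbf1Δ, where COX3 read near the lowest value, share the estimate of the spread. Their SD was 0.0231 and 0.0829, against 0.582 in Htt25Q, 0.581 in Htt103Q and 0.233 in ume1Δ. The SE and the interval are therefore narrower than the arrays of the first set alone would give. The call was fragile. It was lost in 10 of 16 alternative settings. Within the processing set the limma adjusted p was 0.291 with deposited values and 0.244 with quantile normalization. With only the groups compared it was 0.169. Leaving out Htt103Q array 2 or 3, or any 1 of the ume1Δ arrays, gave an adjusted p of 0.0584 to 0.141. The change itself stayed between −1.72 and −1.15. Without Htt25Q array 1 and ume1Δ array 1 it was −1.53, with an adjusted p of 0.0458.

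None of the other members passed the test. COB read 4.06, 5.84 and 6.04 on 3974_at in Htt103Q and 4.15, 4.80 and 4.90 in ume1Δ, so the groups overlapped. It changed by −0.70 there and by −0.71 on 3975_at, with limma adjusted p of 0.683 and 0.406. ATP6 read 3.29, 4.26 and 4.75 in Htt103Q and 2.56, 3.16 and 3.78 in ume1Δ. Its change of −0.93 (95% interval −1.69 to −0.17) was not called (limma adjusted p = 0.243). It was called in 2 of 15 alternatives, with array weights (−1.03, adjusted p = 0.00585) and without Htt103Q array 1 (−1.34, adjusted p = 0.0409). Without ume1Δ array 1, the lowest for ATP6, the change shrank to −0.63 (adjusted p = 0.612). Over the 15 alternatives the ATP6 change ran from −1.34 to −0.61, with adjusted p up to 0.665. COX1 4005_at did not shift, with 11.65, 11.96 and 12.14 in Htt103Q, 12.11, 11.79 and 11.87 in ume1Δ and a 95% interval of −0.29 to 0.29. OLI1 3976_at changed by −0.13 (95% interval −0.35 to 0.10). All 6 shared probe sets of COB and COX1 had lower means in ume1Δ, by 0.45 to 1.65 on the log2 scale, and 0 of them passed the test. Against COX1 4005_at and OLI1 3976_at the log2 ratio of COX3 was 1.40 and 1.27 lower in ume1Δ, with no overlap and the smallest exact permutation p of 0.1 in each case. These pairs, too, were picked after their values were seen, so the lack of overlap and this p add nothing to the change of COX3.

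The same ume1Δ arrays were set against Htt25Q, so this comparison is not independent of the last. Again 1 of 14 members was called, COX3, lower in ume1Δ. Of all probe sets 7.87% were called, 4.17% higher and 3.7% lower. COX3 read 4.96, 5.74 and 4.60 in Htt25Q, all above the ume1Δ arrays, and the change was −1.44 (SE 0.302, 95% interval −2.10 to −0.77, limma adjusted p = 0.0157), a 2.71-fold lower signal. This SE, too, rests on the spread shared with bna4Δ and mbf1Δ. The call was lost in 4 of 16 alternatives. In 3 of them the fit held fewer arrays, with adjusted p of 0.123 to 0.202, and the fourth left out ume1Δ array 2, with an adjusted p of 0.0542. Without Htt25Q array 1 the change was −1.51 and was called. COB 3975_at also showed no overlap, which 11.5% of all probe sets did in the lower direction. It read 5.59, 5.63 and 4.94 in Htt25Q and 4.10, 4.75 and 4.56 in ume1Δ, a change of −0.92 that was not called (limma adjusted p = 0.133). COB 3974_at changed by −1.29 with an adjusted p of 0.209.

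The effect of the long glutamine tract was read from Htt103Q against Htt25Q. None of the 14 member probe sets was called by limma, while 4.44% of all probe sets were (2.05% higher and 2.39% lower), and 1 member had an unadjusted p under 0.05. No member separated the arrays of the groups, whereas 18.9% of all probe sets did in one direction or the other. The member changes ranged from −0.59 to 0.51 with a median of −0.02, and the adjusted p ranged from 0.229 to 1.

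The arrays show how wide the limits on that result are. COB 3974_at read 6.76, 6.07 and 4.89 in Htt25Q and 4.06, 5.84 and 6.04 in Htt103Q, so each group held arrays near 6 and 1 that was lower. Its change of −0.59 had a 95% interval of −1.87 to 0.69, which leaves room for a large difference in either direction. COB 3975_at was measured more tightly, with a change of −0.21 (95% interval −0.96 to 0.55). COX1 4005_at read 11.80, 12.07 and 11.76 in Htt25Q, and its interval of −0.25 to 0.33 bounds any change more narrowly. OLI1 3976_at read 13.12, 13.12 and 12.92 in Htt25Q and 13.00, 12.99 and 13.14 in Htt103Q, a change of −0.01 (95% interval −0.24 to 0.21). COX3 changed by −0.04 (95% interval −0.70 to 0.63) and ATP6 by 0.33 (95% interval −0.43 to 1.09).

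Some members rested on single arrays here. COX2 read 3.92 in Htt25Q array 1, the array with the uneven actin signal, and 2.05 to 2.46 in the 8 remaining arrays of the set. COX1 4008_at read 6.93 in that array and 5.78 and 4.93 in the other two of its group, and its change moved from −0.58 to −0.05 without it. ATP8 3956_i_at had the same deposited value, 2.85, in 8 of the 9 arrays and 3.80 in Htt103Q array 3, where ATP8 3957_r_at also rose above the floor to 3.68. Quantile normalization turned the 8 identical values into slightly different ones. VAR1 3979_i_at lay between 2.04 and 2.28 in all 9 arrays, so that a change in VAR1 could not be measured in this set. The unadjusted p under 0.05 was that of VAR1, with a change of −0.15 and a limma adjusted p of 0.229.

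The levels of the 5 groups can be set side by side only as a description. By its mean, COB 3974_at stood at 10.12 ± 0.202 in bna4Δ, 6.69 ± 0.676 in mbf1Δ, 5.91 ± 0.947 in Htt25Q, 5.31 ± 1.09 in Htt103Q and 4.62 ± 0.409 in ume1Δ (SD, n = 3 arrays each). The order was the same for 3975_at, at 9.06 ± 0.366, 6.17 ± 0.598, 5.39 ± 0.383, 5.18 ± 0.444 and 4.47 ± 0.332. Neighbours within the first set overlapped on both, and bna4Δ and mbf1Δ did not. COX3 had another order, with 5.10 ± 0.582 in Htt25Q, 5.06 ± 0.581 in Htt103Q, 3.66 ± 0.233 in ume1Δ, 2.22 ± 0.0231 in bna4Δ and 2.21 ± 0.0829 in mbf1Δ. VAR1 3979_i_at stood at 4.22 ± 0.0725 in bna4Δ and 3.01 ± 0.0671 in mbf1Δ. OLI1 3976_at ran from 13.05 ± 0.115 in Htt25Q and 13.04 ± 0.0826 in Htt103Q through 12.92 ± 0.0592 in ume1Δ and 12.75 ± 0.0586 in bna4Δ to 12.47 ± 0.234 in mbf1Δ. Thus the means of these probe sets of COB and VAR1 were higher in the second set and those of COX3 and OLI1 lower. For COB the arrays of mbf1Δ overlapped those of Htt25Q on both probe sets. The shared COB probe set 3968_s_at had a lower mean in mbf1Δ, 5.91, than in Htt25Q, 7.01, or Htt103Q, 7.61. Strain and processing set cannot be told apart in these differences.

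The nuclear genes that serve the members were read as 8 lists of 107 measured genes, for mitochondrial transcription and RNA decay, intron splicing, translational activation, DNA maintenance, the nuclear subunits of the 3 complexes and their assembly. In mbf1Δ against bna4Δ, 6 of the 107 were called higher and 2 lower, against 7.37% and 5.87% of all 5656 genes. Their median change was 0.08. CBS1, a translational activator of COB mRNA, was 1 of the 2 that fell. It read 6.94, 6.87 and 6.93 in bna4Δ and 6.47, 6.49 and 6.39 in mbf1Δ, a change of −0.46 (SE 0.112, limma adjusted p = 0.0233), and each of the 6 fits with 1 array removed lost the call (limma adjusted p 0.0521 to 0.0766). The other COB factors did not pass the test, with changes of −0.31 for CBS2 and 0.02 for CBP1, which stabilises the COB transcript. MSS116, the RNA helicase of mitochondrial splicing, fell by 0.36 on the log2 scale with an adjusted p of 0.00877, lost in 3 of 15 alternatives.

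The 6 genes called higher were a smaller share of the lists than of all genes. RPM2, the protein subunit of mitochondrial RNase P, rose by 1.26 with a limma adjusted p of 0.0299, a call that each fit with 1 array removed also lost. NAM2, the mitochondrial leucyl-tRNA synthetase that also acts in splicing, rose by 0.74 with an adjusted p of 0.0161, lost in 2 of 15 alternatives. PET111, the translational activator of COX2, rose by 0.59 with an adjusted p of 0.0159, lost in 3 of 15. HMI1, a mitochondrial DNA helicase, rose by 0.36, COX12, a nuclear subunit of cytochrome c oxidase, by 0.73 and COA2, an assembly factor of that enzyme, by 0.86. The call of COA2 was lost in 5 of 15 alternatives, and those of HMI1 and COX12 in none of the 15. The nuclear subunits of the complexes as lists had medians of 0.19 for cytochrome bc1, 0.54 for cytochrome c oxidase and 0.13 for ATP synthase, with 0 of 9, 1 of 9 and 0 of 15 called higher and 0 called lower. None of the nuclear partners of COB in the bc1 complex passed the test in either direction.

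**Figure D5:**
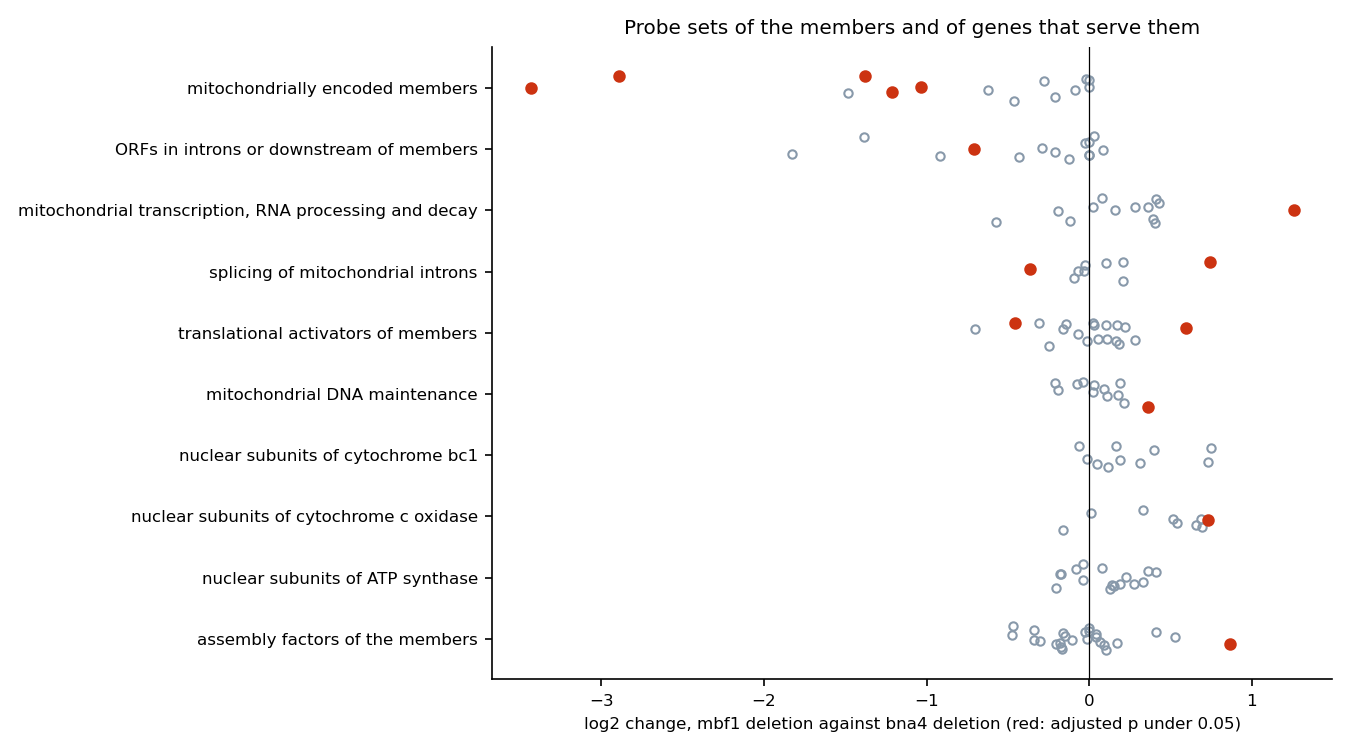
Log2 change in mbf1Δ against bna4Δ (x axis) for the 14 member probe sets (top row) and for the lists of genes that serve them (other rows), with a point per probe set. Red marks an adjusted p under 0.05, and the height of a point within its row carries no value. The members reach −3.44, while the called nuclear genes lie between −0.46 and 1.26.

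In the first processing set the nuclear lists held few calls. In Htt103Q against Htt25Q, 1 of the 107 genes was higher and 0 lower, against 3.08% and 3.45% of all genes. That gene was NCA3, which with NCA2 regulates the mRNA of ATP8 and ATP6 and belongs to a family of proteins also linked to the cell wall. It read 7.001, 8.27 and 8.33 in Htt25Q and 10.73, 10.36 and 9.96 in Htt103Q, a rise of 2.48 on the log2 scale (SE 0.321, limma adjusted p = 0.00147), or 5.58-fold. It was as high in ume1Δ, with 10.76, 10.75 and 10.40 and a change of 2.77 against Htt25Q (adjusted p = 0.000381). Both calls were lost only when the fit held just the groups compared, with adjusted p of 0.185 and 0.0881. Without Htt25Q array 1, the array with the uneven actin signal, the NCA3 changes were smaller, at 2.05 and 2.34, and stayed called. ATP6, whose mRNA NCA3 acts on, changed by 0.33 in the first of these comparisons and by −0.60 in the second and was called in neither. ATP8 changed by 0.34 on 3956_i_at and 0.51 on 3957_r_at in the first, and by −0.15 and −0.03 in the second. None of these was called, and most ATP8 values of this set were repeated or at the floor.

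In ume1Δ against Htt103Q, 2 of the 107 genes were higher and 1 lower, against 2.16% and 1.22% of all genes. These were IMP2 (0.59) and BCS1 (0.33), which rose, and IMP1 (−0.45), which fell, with limma adjusted p of 0.0269, 0.039 and 0.0467. IMP1 and IMP2 are catalytic subunits of the inner membrane peptidase that processes Cox2, and BCS1 inserts the Rieske protein into the bc1 complex. The calls were lost in 9, 12 and 10 of 16 alternatives for IMP2, BCS1 and IMP1. In ume1Δ against Htt25Q, 1 gene was higher and 4 were lower, against 5.89% and 4.88% of all genes. NCA3 was the one that rose. MGT1 (−0.51), CCE1 (−0.34), HMI1 (−0.23) and COX13 (−0.47) fell, all but COX13 from the list of DNA maintenance, and their calls were lost in 6 to 12 of 16 alternatives. MGT1 is the symbol of a DNA repair methyltransferase and was also an older name of CCE1, so its place in that list is doubtful.

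The nuclear or other genes whose pattern was most like that of the members were picked by correlation with the mean member profile over the 15 arrays, after each was centred on its processing set. CBS1 came first with a Pearson r of 0.916 (Spearman rho 0.836, and r 0.886 without the 2 arrays farthest from the median profile). It was followed by MTM1 (r 0.893), BRF1 (r 0.89), HEH2 (r 0.884) and DIA3 (r 0.875). Among the members themselves, the centred means of COB and COX1 had an r of 0.915, and the other pairs ranged from 0.000997 (COX2 with ATP8) to 0.898 (COB with VAR1). BRF1 is a subunit of an initiation factor of RNA polymerase III, MTM1 a mitochondrial carrier protein and HEH2 a protein of the inner nuclear membrane. The 15 arrays are 5 groups of 3, so these values describe likeness over few independent points, and the arrays share the differences between groups given above. BRF1 for example had means of 8.34 in Htt25Q, 8.16 in Htt103Q, 7.93 in ume1Δ, 7.38 in bna4Δ and 6.96 in mbf1Δ.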

How the data were processed

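Total RNA of 15 samples was labelled with biotin by in vitro transcription and read on Affymetrix Yeast Genome S98 arrays, per the labels. The deposited table held 1 log2 intensity for each of 9335 probe sets and array. The steps by which the authors summarised and normalized these log2 values are not given in the sources used here. Its 60 control probe sets served as checks and were left out, which left 9275. The platform annotation gave 6504 of these 1 gene symbol, 328 several and 2443 none. Names and coordinates came from RefSeq assembly R64.

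The deposited values were quantile normalized over the 15 arrays, because their medians differed between the 2 processing sets. Limma 3.58.1 in R 4.3.3 fitted 1 linear model with 5 group means, with empirical Bayes moderation, two-sided tests and Benjamini-Hochberg adjustment over all 9275 probe sets, and an adjusted p under 0.05 was called. A fold against a group at the floor is a lower bound. The number of arrays limits the precision. A nuclear gene with several probe sets was called if 1 of them was.

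The members and the gene lists were chosen with earlier results of these data known. Named were every member probe set, up to 3 called genes of each list and comparison with the largest change, and the 5 genes most like the mean member profile. Other genes of a list that are named (CBS2, CBP1) were picked after their values were seen. Alternatives were the deposited values, centring on array medians, fits within a processing set or with only the groups compared, removal of the dimmest 25% of probe sets, a trended and robust variance, array weights (estimated gene by gene on probe sets with all values above 3), the replicate number as a block, and leaving out arrays.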

Additional observations from a re-analysis of the deposited data

How the results depend on the processing

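Over 4 comparisons and 15 or 16 alternatives each, no called change of a named gene turned its direction. The calls of both COB probe sets, COX1 4007_at and VAR1 3979_i_at in mbf1Δ against bna4Δ held in every alternative that tested them. Of 9275 probe sets, 412 were called in Htt103Q against Htt25Q, 246 in ume1Δ against Htt103Q, 730 in ume1Δ against Htt25Q and 977 in mbf1Δ against bna4Δ. For the comparisons of the first set, in the same order, the counts were 134, 46 and 252 with deposited values within the set, 128, 55 and 249 with quantile normalization within it, and 32, 128 and 75 with only the groups compared. In mbf1Δ against bna4Δ the same settings gave more calls, 1269, 1274 and 1245, and 6 members in each. Array weights gave 1056, 1838, 1530 and 2648, and leaving out Htt25Q array 1 and ume1Δ array 1 together gave 467 in ume1Δ against Htt103Q. Leaving out 1 array gave 190 to 557, 115 to 241, 462 to 869 and 632 to 919.

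Of the 14 members, 0, 1, 1 and 5 were called. The count for ume1Δ against Htt103Q was 0 with deposited values, with either fit within the set, with only the groups compared and with the replicate block, and 2 with array weights. That for ume1Δ against Htt25Q was 0 with either fit within the set and with only the groups compared. Without the dimmest 25% of probe sets, which removes ATP8, VAR1, COX2, ATP6 and OLI1 3993_at, 3 were called in mbf1Δ against bna4Δ. Leaving out 1 array gave 0 to 1, 0 to 2, 0 to 2 and 4 to 5. The counts above 1 in the ume1Δ comparisons added ATP6 without Htt103Q array 1 and VAR1 without Htt25Q array 3 (adjusted p = 0.0176), and the latter array also gave the 1 call in Htt103Q against Htt25Q (VAR1, adjusted p = 0.0247).

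Some uncalled members changed sign, among them COB 3974_at and ATP8 3957_r_at, which had the largest fall and rise in Htt103Q against Htt25Q. In Htt103Q against Htt25Q, array weights gave 0.15 for COB 3974_at, 0.056 for COX1 4007_at and 0.18 for COX2. COX3 was at 0.077 with deposited values and 0.048 with centred medians. Leaving out 1 array gave −1.10 to 0.033 for COB 3974_at, −0.43 to 0.028 for COB 3975_at, −0.071 to 0.17 for COX1 4005_at, −0.38 to 0.0535 for COX1 4007_at, −0.76 to 0.13 for COX2, −0.29 to 0.28 for COX3, −0.0044 to 0.54 and −0.034 to 0.78 for ATP8 and −0.078 to 0.022 for OLI1 3976_at. COX1 4005_at in ume1Δ against Htt103Q was −0.071 and −0.083 with deposited and centred values, −0.00175 with quantile normalization within the set, −0.14 with array weights, −0.091 without Htt25Q array 1 and ume1Δ array 1 and −0.13 to 0.11 without 1 array. In ume1Δ against Htt25Q it was −0.10 with array weights, −0.088 without both arrays and −0.051 to 0.14 without 1, and ATP8 3956_i_at ran from −0.28 to 0.030. COX3 in mbf1Δ against bna4Δ was 0.055 with deposited values, 0.026 with centred medians and −0.059 to 0.024 without 1 array. The cause was not tested.

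Replicate numbers did not pair the arrays in a clear way. Correlations of deviations between arrays of 1 number ran from −0.169 to 0.434, and 2, 4, 2 and 0 of 6 arrays correlated best with their own number. In ume1Δ against Htt103Q, which gave the 4 of 6, the correlations were 0.340, −0.169 and 0.434. Whether arrays were paired there cannot be told from these values. With the replicate block 421, 228, 720 and 978 probe sets and 0, 0, 1 and 5 members were called. Signals near the lowest value limit what COX2, ATP8, VAR1 and, in the second set, COX3 can show.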

Other observations

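Reading frames of the mitochondrial genome outside the 8 genes set array 1 of Htt25Q apart from the other two arrays of its group. Q0255, a frame that overlaps the end of COX2 in the annotation (bases 74495 to 75984), read 6.27 on 3985_i_at in array 1 and 2.83 and 2.23 in arrays 2 and 3. SCEI, the endonuclease frame of the intron of the large mitochondrial ribosomal RNA, read 4.59 against 2.57 and 2.04, and AI1 read 6.67 against 4.79 and 4.52. AI5_ALPHA went the other way, with 3.28 against 6.76 and 5.69, and so did 4001_at, which matches COX1, AI5_ALPHA and AI4, with 7.37 against 10.23 and 9.74. This is the array in which the actin ends differed by 2.25, and the part of that difference in these values was not tested.

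Some intron frames differed between the processing sets. AI3 read 2.96 to 3.39 in bna4Δ and mbf1Δ and was at the floor in Htt25Q, Htt103Q and ume1Δ, while AI5_ALPHA had means of 4.44 and 4.01 in bna4Δ and mbf1Δ and of 5.25, 6.25 and 5.57 in Htt25Q, Htt103Q and ume1Δ. Strain and processing set cannot be told apart in these values.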
